A study of Mus musculus with 2 samples.

Results

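C1q-positive cells of the inflamed mouse colon were taken from CD45+ 7-AAD- cells sorted from the lamina propria after dextran sulfate sodium (DSS) treatment. A barcode of a droplet was kept when it held at least 1000 unique molecular identifiers (UMIs, each 1 captured transcript), at least 500 genes and less than 5% mitochondrial UMIs. It was called C1q-positive with at least 5 UMIs of C1qa, C1qb and C1qc together and at least 3 of Lyz2 and Csf1r, no Cd3e, at most 1 UMI of Cd79a, less than 1% Jchain and less than 5% S100a8 and S100a9. The rule gave 301 of 6005 kept cells for WT and 220 of 7918 for Ring1AKO, 521 of 13923 cells in all. The cells were thus selected on their own UMIs of these genes.

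The study asked how loss of Ring1A, a ubiquitin ligase subunit of polycomb repressive complex PRC1, alters DSS colitis. Both groups were C57BL/6 mice aged 8 to 10 weeks, and both received 2.5% DSS in drinking water for 7 or 8 days. WT mice had intact Ring1, and Ring1AKO mice lacked it in the whole body, in epithelium and stroma as well as in immune cells. Each library pooled the cells of 5 mice and was the only library of its group. Genotype and any difference in the handling of the libraries cannot be told apart, no test was made between the groups, and cells of a library are not replicates. Values are therefore a level in each library, in CPM (a gene's count per 1000000 UMIs, summed over the cells) with an exact 95% Poisson interval. A log2 ratio is Ring1AKO over WT with 1 UMI added to each sum and an exact 95% conditional interval. All intervals cover counting error only.

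C1q is the recognition molecule of the classical complement pathway and is built from the chains A, B and C, whose genes lie side by side. Tissue macrophages are its main source. In the colon, Ly6C-high blood monocytes enter the lamina propria continually and mature into MHC class II-positive, C1q-producing macrophages, which take up dead cells and bacteria and make IL-10. In colitis, more of the entering cells remain in early stages of this path and make inflammatory cytokines and chemokines.

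All 6 macrophage markers of the label were found, but not evenly over the cells. They had levels in the WT and Ring1AKO libraries of 1368 and 2271 CPM for C1qa, 1610.2 and 2545 for C1qb, 990.3 and 1451 for C1qc, 616 and 691 for Csf1r, the receptor of the macrophage growth factor CSF1, 4068 and 9879 for Apoe, a lipid carrier, and 237 and 340 for Ms4a7, a membrane protein of mature macrophages. C1qa, C1qb, C1qc and Csf1r chose the cells, so their levels are a description. Apoe and Ms4a7 were not used, and gated Ly6c2 monocytes had 647 and 2579 CPM of Apoe and 9.96 and 9.02 of Ms4a7. Cells just inside the threshold, with 5 to 7 C1q UMIs, numbered 35 in the WT library and 13 in the Ring1AKO library and had 1015 and 2922 CPM of Apoe. Cells just outside, with 2 to 4 C1q UMIs that met the other criteria, numbered 40 and 25 and had 1125 and 869 CPM, so that in the WT library Apoe was no higher inside the threshold than outside it. The 115 WT cells with least C1q, under 0.25% of their UMIs, had 25.8 CPM of Ms4a7 (17.8 to 36.2) and 1051 of Apoe (996 to 1109), above the 9.96 and 647 of WT Ly6c2 monocytes, and 6319 of the monocyte gene Plac8 beside 6594. The 42 WT cells with 1% or more had 1411 CPM of Ms4a7. The cells are therefore named here by the rule, as C1q-positive cells.

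The libraries held 74414511 UMIs (WT) and 81862096 UMIs (Ring1AKO), with medians of 6354 and 5035 UMIs per kept cell. The C1q-positive cells had medians of 9238 UMIs (1043 to 33842) and 2456 genes in the WT library and 6072 UMIs (1022 to 28256) and 1910.5 genes in the Ring1AKO library, and sums of 2707166 and 1408994 UMIs. Ring1, the targeted gene, had 30 UMIs in the WT cells and 11 in the Ring1AKO cells, 11.1 and 7.81 CPM, with a log2 ratio of -0.43 (-1.65 to 0.53). Reads from the 3′ end can come from a transcript that is broken further up, so this level does not check the label. In all kept cells, 11 barcodes occurred in both libraries, of which 2 belonged to C1q-positive cells of the Ring1AKO library.

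C1q-positive cells made up 5.01% (4.47 to 5.60, exact Clopper-Pearson interval) of the WT library and 2.78% (2.43 to 3.16) of the Ring1AKO library, a log2 ratio of -0.85 (-1.10 to -0.61). B cells made up 15.4% and 41.6%. Of the kept cells other than B cells, the C1q-positive cells were 5.92% and 4.76%, a log2 ratio of -0.32 (-0.56 to -0.07). When every cell was thinned to 2000 UMIs before the rule was applied, 153 and 156 cells remained, 2.61% and 2.04%. Of the cells with at least 5 C1q UMIs, 65 (WT) and 86 (Ring1AKO) were removed by Cd79a, 25 and 30 by Cd3e, and 10 and 26 by Lyz2 and Csf1r. Ly6c2 monocytes, gated on at least 2 UMIs of Ly6c2 and at most 1 of C1q, were 597 cells (9.94%) in the WT library and 83 (1.05%) in the Ring1AKO library. The C1q-positive cells were thus 33.5% (30.4 to 36.7) and 72.6% (67.2 to 77.6) of both kinds together.

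C1q-positive cells were next set against Ly6c2 monocytes of the same library. Of 4428 genes with enough UMIs, 143 (3.23%) were at least 2-fold higher and 49 (1.11%) at least 2-fold lower in both libraries. The gates fixed C1q and Ly6c2, and the 2 libraries are not replicates. Ranked by the smaller difference of the 2 libraries, the highest ratios belonged to Ccl8, a chemokine that binds CCR2, with 270.0 and 271.8 CPM in C1q-positive cells against 1.16 and 1.13 in monocytes, and Pf4, a platelet chemokine that macrophages also make, with 171 and 636 against 1.49 and 3.38. The matrix protease Mmp12 (log2 ratios over monocytes of 4.86 and 5.11), Ms4a7 (4.55 and 5.07) and the matrix protease Mmp13 (4.52 and 6.76) followed. Mmp12 rested on few cells, since 1 cell held 57.5% of its UMIs in the Ring1AKO library. Gdf15, a stress cytokine with no UMI in monocytes of the Ring1AKO library, Cd72, Cd63, a lysosomal tetraspanin, Mrc1, the mannose receptor, and Cd81 completed the 10 highest. Cd72 was also high in B cells, at 199 and 232 CPM. The lowest were Chil3, a chitinase-like protein of monocytes (log2 ratios of -1.74 and -3.59), Hp, Ifitm6, Mgst1, S100a4, Vcan, Cxcl3, Lsp1 and Slpi. Of a list of genes of mature tissue macrophages, 11 of 13 with enough UMIs were higher in both libraries. Of a list of genes of recruited monocytes, 7 of 13 were lower in both and none was higher. Against Flt3 dendritic cells, 679 of 5931 genes (11.4%) were higher in both libraries and 437 (7.37%) lower, with all 14 chemokines counted among the higher ones.

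**Figure D1:**
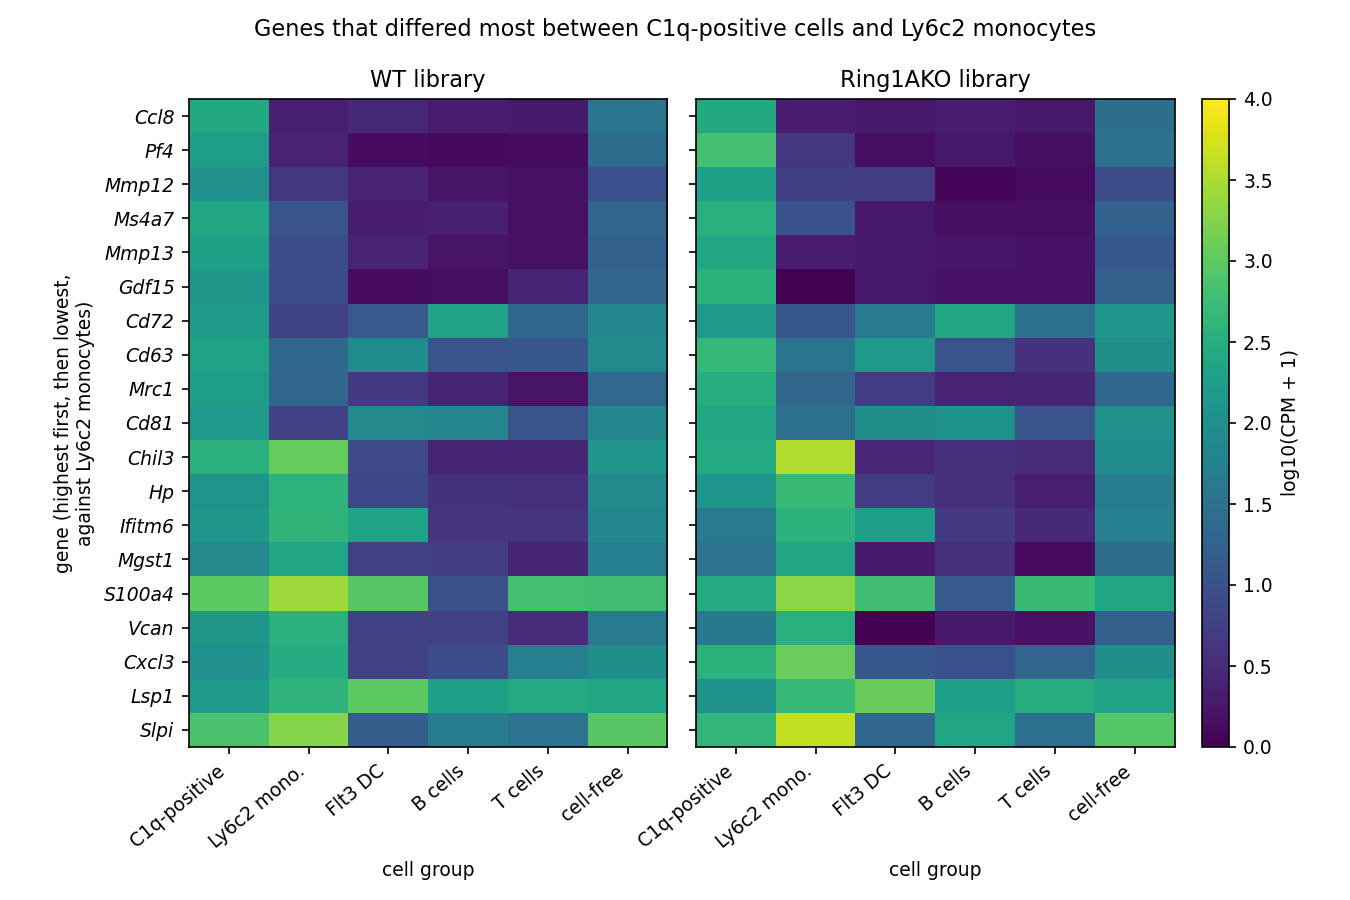
Levels of 19 genes far from Ly6c2 monocytes, as log10(CPM + 1) by colour, in 5 cell groups and in cell-free barcodes (columns) of the WT library (left) and the Ring1AKO library (right). Ccl8, Pf4 and Ms4a7 were bright in C1q-positive cells and dark in the other cells, and Chil3 was brightest in Ly6c2 monocytes, at 1138 and 3310.2 CPM.

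The cells spread over a wide range of C1q. C1q made up a median of 0.349% of the UMIs of a cell in the WT library (0.0283 to 3.32) and 0.638% in the Ring1AKO library (0.0341 to 2.61). Under 0.25% of UMIs there were 115 WT and 39 Ring1AKO cells, between 0.25 and 0.5% there were 64 and 49, between 0.5 and 1% there were 80 and 86, and at 1% or above there were 42 and 46. C1q chose the cells and set these ranges, so its own level along them is no result. Apoe went from 1051 CPM in the lowest range to 22006 in the highest in the WT library and from 3347 to 24551 in the Ring1AKO library. Ccl8 went from 12.5 to 2999.7 and from 3.18 to 1672. Plac8, a gene of monocytes and lymphocytes, went the other way, from 6319 to 42.8 and from 1251 to 21.4. Cells of the highest range were shallow, with medians of 2083 and 2756.5 UMIs against 10530.0 and 7139 in the lowest.

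The ratio of C1qa to C1qb differed along these ranges, and is given as a description only, since the UMIs of both genes chose the cells and set the ranges. In WT cells, C1qa stood to C1qb as 0.357 (0.312 to 0.407) in the lowest range of C1q, 0.732 (0.661 to 0.812) in the next, 1.02 (0.954 to 1.09) in the third and 1.13 (1.02 to 1.24) in the highest. In Ring1AKO cells the ratio was 0.661 (0.534 to 0.816), 0.802 (0.702 to 0.917), 0.940 (0.878 to 1.01) and 0.906 (0.832 to 0.986). Both libraries had the lowest ratio in the cells with least C1q. In cell-free barcodes, those with fewer than 100 UMIs, it was 0.847 (0.778 to 0.921) and 0.793 (0.723 to 0.869). Cells with at least 2 UMIs of Ly6c2 had 0.482 (0.439 to 0.528) and 0.556 (0.445 to 0.692), the latter in 15 cells, and cells without Ly6c2 had 1.10 (1.04 to 1.17) and 0.915 (0.868 to 0.965). The genes lie within 20 kb on chromosome 4 (GRCm38), C1qb at chr4:136880126-136886200, C1qc at chr4:136889801-136892936 and C1qa at chr4:136895916-136898844. The 250 bases before the start of C1qb (RefSeq, GRCm38.p6, chr4:136886201-136886450, minus strand) are shown with 2 motifs in capitals, TGCTGA, a core of sites of the MAF factors of macrophages, and GAGGAA, the core of sites of PU.1, the master factor of myeloid cells.
C1qb: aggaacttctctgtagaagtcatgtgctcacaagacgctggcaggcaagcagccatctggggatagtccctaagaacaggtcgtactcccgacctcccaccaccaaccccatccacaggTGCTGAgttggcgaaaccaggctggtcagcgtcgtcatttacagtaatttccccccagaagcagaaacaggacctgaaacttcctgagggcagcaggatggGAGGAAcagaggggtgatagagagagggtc
Read on both strands, these short motifs were common: TGCTGA was in 18.02% and GAGGAA in 25.9% of 27025 promoters of the same length. The table had no entry for C1qa.

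Among cells thinned to 2000 UMIs, 156 of 6161 genes had a variance at least 2 times their mean in both libraries. Ranked by the lower ratio of the 2 libraries, the most uneven were the chemokines Ccl4, with a variance to mean ratio of 26.7 (WT) and 31.6 (Ring1AKO), Cxcl2 (25.2 and 23.9) and Ccl8 (20.01 and 22.8), and then Apoe (29.7 and 18.02). Cd74, the invariant chain of MHC class II, Hspa1b, a heat shock protein, Ccl7, Retnla, Saa3 and Thbs1 completed the 10 highest, among them the highest single values, 41.8 for Retnla in the WT library and 34.98 for Saa3 in the Ring1AKO library. Retnla, a product of alternatively activated macrophages, came almost wholly from single cells, which held 83.2% of its UMIs in the WT library and 96.8% in the Ring1AKO library. Markers of long-lived gut macrophages were rare in both libraries. At 2000 UMIs, Timd4 was found in 1.498% (0.410 to 3.79) of WT and 1.58% (0.327 to 4.54) of Ring1AKO cells and in no B cell. Lyve1 was found in 0 of 267 WT cells, which at a limit of 3 counts allows a share of cells with a UMI of up to 1.12%, and in 2.63% (0.860 to 6.03) of Ring1AKO cells. It had 0 and 28 UMIs, at least 17.9-fold higher in the Ring1AKO library against a floor of 3 counts, and 32.1% of these UMIs were in 1 cell.

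Between the libraries, 6193 genes had at least 50 UMIs over the C1q-positive cells of both. Of these, 148 (2.39%) were at least 2-fold higher in the Ring1AKO library and 244 (3.94%) at least 2-fold lower, with a median log2 ratio of -0.06 over all 6193 genes. The lowest reported among genes with at least 100 UMIs and 100 CPM were the interferon-inducible genes Cxcl9, Gbp2, Gbp4, Zbp1, Ly6i and Ly6a, the monocyte genes Ly6c2 and Plac8, and Retnla. The highest were Gm42031, a predicted gene, the neutrophil-attracting chemokines Cxcl1 and Cxcl3, the acute phase protein Saa3, Pf4, the homing receptor Ccr7, Il10, the monocyte attractant Ccl7, Gdf15 and Ramp3, a receptor-modifying protein. These ratios depended on the choice of cells and on the UMIs summed. Retnla turned to 4.99 without the deepest 10% of cells in each library. With the rule applied to cells thinned to 2000 UMIs, the thinned UMIs of 153 and 156 cells were summed. These sums were smaller and no intervals were computed for them. Saa3 was at 4.13 under this rule and Cxcl3 at 2.92. The log2 ratio was 0.62 for Ccr7, 0.86 for Il10, 0.65 for Ccl7, -0.19 for Ramp3 and -0.89 for Ly6i, all within 2-fold. It was 0.68 for Ccr7 without the deepest 10% of cells, and 0.77 for Pf4 and 0.82 for Gdf15 in cells without Ly6c2. Genes of the Ly6, Gbp and Hspa1 families have near-identical copies, and their split between copies is uncertain.

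**Figure D2:**
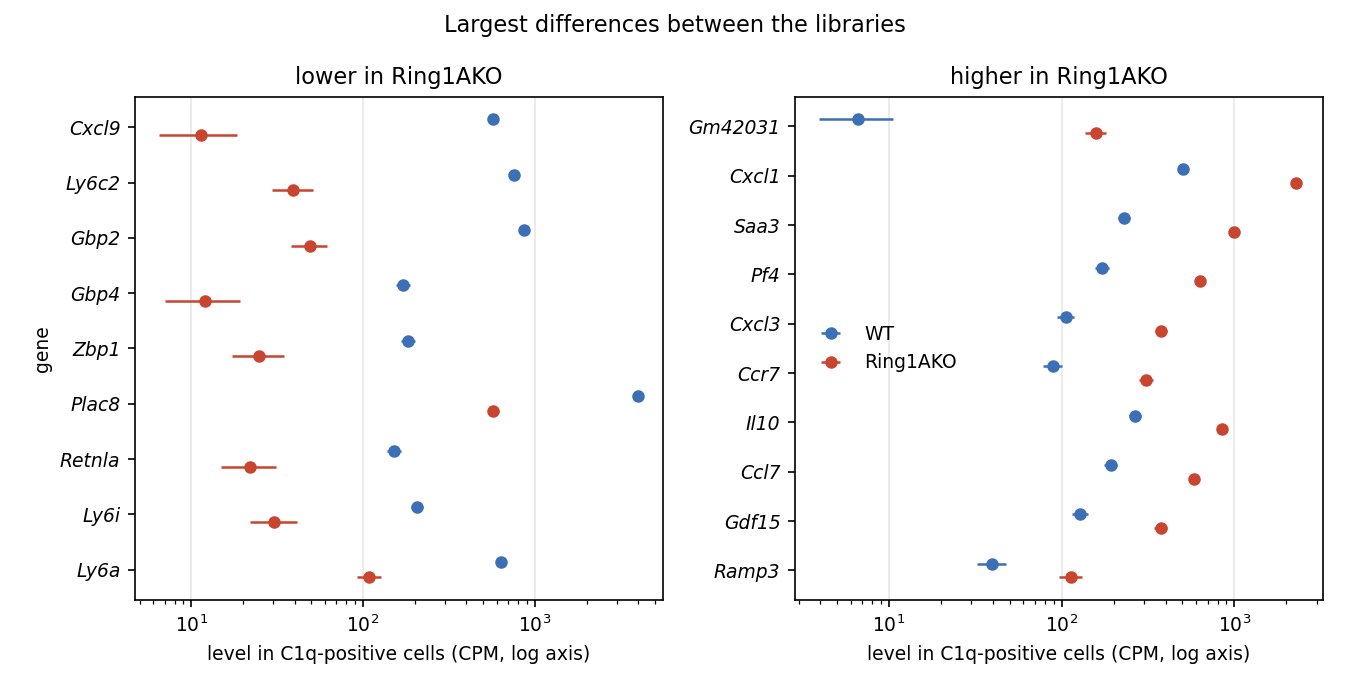
Levels in C1q-positive cells (CPM, log axis) of 9 genes with the lowest ratios (left) and the 10 with the highest (right), for the WT and Ring1AKO libraries. Only genes with at least 100 UMIs and 100 CPM were ranked. Points are levels over all cells of a library and bars are exact 95% Poisson intervals. The genes were chosen for the size of their ratios, so that the bars stand apart is no result, and Cxcl9 has 568 and 11.4 CPM.

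Genes induced by interferon-gamma were lower in the Ring1AKO library as a group. Of the 19 genes on the list, 18 were counted, all 18 had a ratio below 0, 13 were at least 2-fold lower and none was higher, with a median log2 ratio of -1.75 against -0.06 over all genes. Cxcl9, which attracts CXCR3-positive T cells, had 568 CPM (540.1 to 597) in the WT library and 11.4 (6.49 to 18.4) in the Ring1AKO library, a log2 ratio of -5.56 (-6.46 to -4.94). Gbp2, a GTPase that attacks vacuoles of pathogens, had 871 (836 to 907) and 48.97 (38.1 to 62.0), a ratio of -4.13 (-4.52 to -3.81). The other guanylate-binding and immunity-related GTPases of the list, which act against pathogens inside cells, were also at least 2-fold lower, Gbp3 and Gbp7 by the least. Gbp4 had a ratio of -3.75, Iigp1 -3.54, Irgm1 -2.92, Gbp5 -2.26, Igtp -2.06, Gbp3 -1.72 and Gbp7 -1.66. Irf1, a transcription factor, had 296 and 85.9 CPM (-1.78), and the immunoproteasome and peptide transport genes Psmb8, Psmb9 and Tap1 had ratios of -1.36, -1.54 and -1.80. Members within 2-fold were Cxcl10 (1165 and 636 CPM, -0.87), Irf8 (-0.92), Socs1 (-0.92), Cd274, the PD-L1 gene (-0.70), and Fcgr1 (-0.32). Ido1 had 1 UMI in each library and was not counted.

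Per cell, Cxcl9 was found at 2000 UMIs in 25.1% (20.01 to 30.7) of WT and 2.11% (0.577 to 5.30) of Ring1AKO cells, against 0.327% and 0.0306% of B cells. Gbp2 was found in 40.8% and 5.79%, against 3.92% and 0.490% of B cells. Without thinning, the shares were 31.6% and 4.09% for Cxcl9 and 54.8% and 17.3% for Gbp2. Cxcl10 was found at 2000 UMIs in 38.9% of cells in both libraries (33.1 to 45.1 and 32.0 to 46.3), and without thinning in 52.2% and 45.5%. Ly6c2 monocytes of the Ring1AKO library were lower for all 18 genes of this list by at least 2-fold, with a median log2 ratio of -2.62, where 716 of 7141 genes (10.0%) were that much lower. Cxcl9 had 494 and 2.25 CPM there. In cell-free barcodes the list summed to 2538 CPM (WT) and 1241 (Ring1AKO), and in C1q-positive cells to 5750 and 1906. The part of free RNA in the difference was not tested, and with the cell-free profile subtracted Cxcl9 and Gbp2 stayed at least 2-fold lower.

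The promoters of these genes were read for the gamma-activated site TTCNNNGAA, an element of interferon-gamma targets, on both strands of the 250 bases before the start (RefSeq, GRCm38.p6). Of the 16 list genes with an entry, 7 (43.75%) held it (Fcgr1, Gbp5, Gbp7, Igtp, Irf1, Irf8 and Psmb8), against 8.13% of all 27025 genes in the table and 6.79% of 5020 genes counted in these cells. The list was made of known interferon-gamma targets, so this is a description of the list. The windows of Irf1 (chr11:53769764-53770013, plus strand, 1 of 2 starts in the table) and Cxcl9 (chr5:92328080-92328329, minus strand) are shown as a gene with a match, in capitals, and as the gene with the lowest ratio, which had none.
Irf1: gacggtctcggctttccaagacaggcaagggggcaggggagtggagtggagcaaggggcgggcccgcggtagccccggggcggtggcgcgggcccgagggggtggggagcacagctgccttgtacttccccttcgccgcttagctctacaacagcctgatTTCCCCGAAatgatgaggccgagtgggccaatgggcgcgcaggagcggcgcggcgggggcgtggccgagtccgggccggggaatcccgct
Cxcl9: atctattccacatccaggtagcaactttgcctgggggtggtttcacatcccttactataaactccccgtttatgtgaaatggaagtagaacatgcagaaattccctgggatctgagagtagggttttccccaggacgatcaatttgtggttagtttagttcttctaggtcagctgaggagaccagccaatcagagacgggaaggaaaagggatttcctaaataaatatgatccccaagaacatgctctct
The match of Irf1 lay 90 bases before the start. No match in Cxcl9 says only that these letters are not in this window. Gbp4 has no entry.

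Genes of the type I interferon response differed in the size of their ratios. Of 10 counted among 14 list genes in the table, 9 had a ratio below 0, 5 were at least 2-fold lower and none higher, with a median of -1.20. Zbp1, a sensor of nucleic acids, had 183 and 24.8 CPM (-2.85), Isg15, a ubiquitin-like modifier, 403 and 115 (-1.80), Irf7 97.5 and 31.9 (-1.58), Ifit2 -1.99 and Isg20 -1.78. Oasl1 had 162 and 166 (0.04), and the ratios of Ifit1 and Rsad2 were -0.34 and -0.48. The antiviral genes thus ranged from a nearly 0 ratio to among the lowest ratios of genes with at least 100 UMIs and 100 CPM. The median of the list was -0.59 with the rule applied to cells thinned to 2000 UMIs and -0.91 in cells without Ly6c2, both within 2-fold. In cells without Ly6c2, 4 of 8 were at least 2-fold lower, with Zbp1 at -1.38 and Ifit1 at -1.09. Monocytes had 11 of 13 lower.

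Genes of recruited monocytes divided. Of 14, 6 were at least 2-fold lower in the Ring1AKO library and none higher, with a median of -0.34. Ly6c2, which marks the inflammatory monocyte subset, had 759 CPM (727 to 793) and 39.03 (29.4 to 50.8), a ratio of -4.26 (-4.70 to -3.90). Plac8 had 3967 and 574 (-2.79), Ccr2, the receptor that brings monocytes out of the marrow, 441 and 175 (-1.33), and Vcan, Ifitm6 and Ms4a4c had ratios of -1.66, -1.57 and -1.67. The others were within 2-fold, with Thbs1 at 3288 and 3679 CPM, Chil3 at 339.8 and 274.7, Fn1, fibronectin, at 201 and 252, and F13a1 at 83.9 and 149.8 (0.84). At 2000 UMIs, 37.5% (31.6 to 43.6) of WT and 7.37% (4.09 to 12.1) of Ring1AKO cells had Ly6c2, beside 5.23% and 2.91% of B cells, and 49.4% and 22.6% had Ccr2, beside 0.871% and 0.490%.

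**Figure D3:**
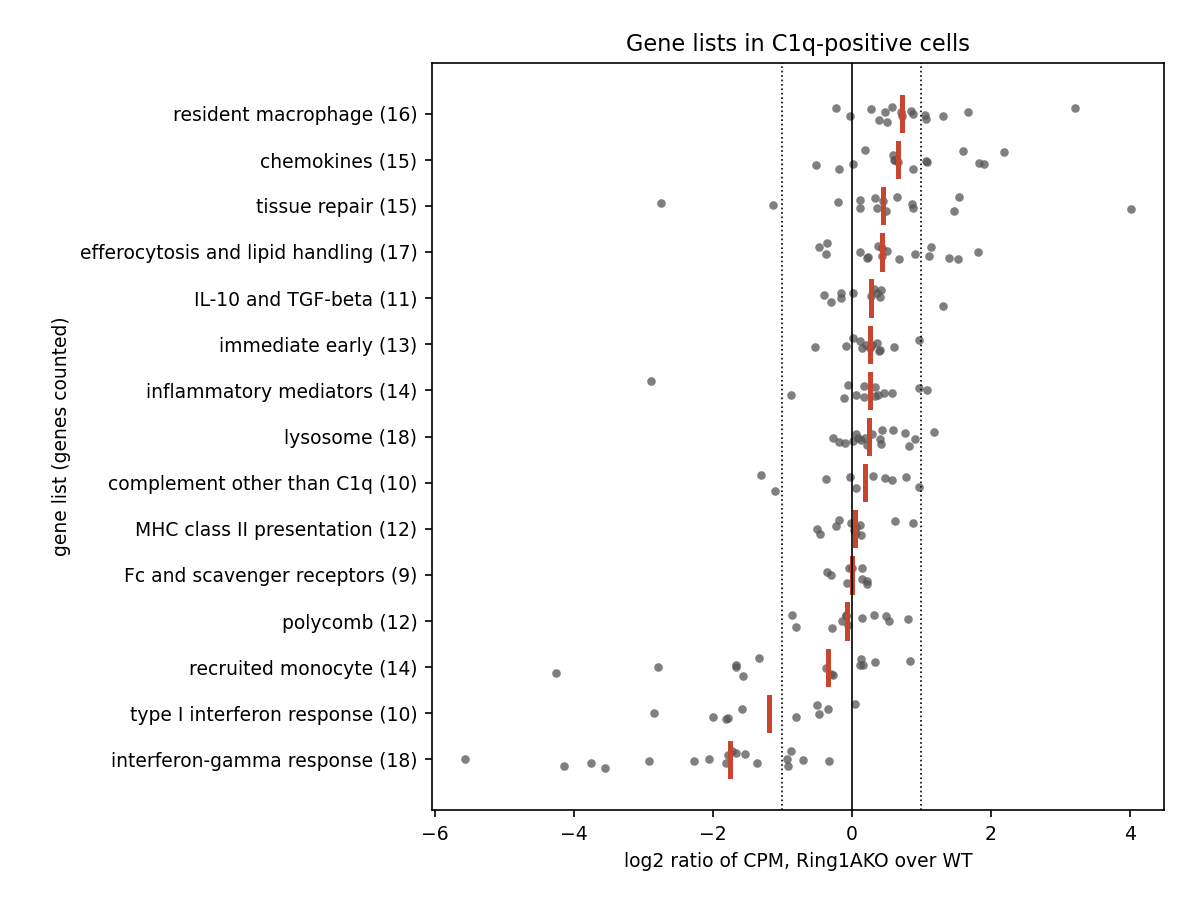
Log2 ratios of CPM, Ring1AKO over WT, of the counted genes (points, spread vertically at random) of 15 lists in C1q-positive cells, with the median of each list as a red bar and dotted lines at a 2-fold difference. The interferon-gamma list lies wholly below 0 with a median of -1.75, and the resident macrophage and chemokine lists have medians of 0.72 and 0.66.

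The cells without Ly6c2 were described apart, since the libraries differed in this subset. It held 144 WT cells (47.8%) and 183 Ring1AKO cells (83.2%), and at least 2 UMIs were in 119 (39.5%) and 15 (6.82%). Within the cells without Ly6c2, 101 of 4314 genes were at least 2-fold higher and 122 lower. The interferon-gamma list was lower there too, with 10 of 15 at least 2-fold lower, none higher and a median of -1.06. Cxcl9 had 299 and 12.9 CPM (-4.44) and Gbp2 184 and 53.3 (-1.77), while Irf1 (-0.88) and Psmb8 (-0.61) were within 2-fold there, as was Irf7 of the type I list (-0.30). The list of monocyte genes turned to the other side, with a median of 0.43, as F13a1 (30.5 and 157 CPM), Hp (32.7 and 132), Fn1 (82.8 and 259.9), Chil3 (75.2 and 213) and Ifitm6 (13.1 and 38.6) were higher and Plac8 (1019 and 412) lower in the Ring1AKO library. Ccr2 (-0.99), Ms4a4c (-0.52) and Vcan (-0.14) were within 2-fold in these cells. S100a9, a calcium-binding protein of neutrophils and monocytes, had 50.1 and 290.2 CPM in these cells. Its partner S100a8 had 15 and 213 UMIs (3.49). Of 3 counted neutrophil markers, these 2 S100 genes were higher and Csf3r was at -0.08, with a median of 2.51. The rule limited S100a8 and S100a9, so their levels are a description. Of the markers below 50 UMIs, Retnlg had 1 and 35, Mmp8 19 and 10, Cxcr2 and Ly6g 0 and 1 each, and Ngp none. Over all cells the 2 S100 genes had ratios of -0.41 (S100a8) and -0.34 (S100a9). The part of neutrophil transcripts in the turn of the monocyte list was not tested. The C1q genes stood near each other, C1qa at 2574 and 2480.1 CPM, a ratio of -0.05 (-0.13 to 0.03). A cell without a Ly6c2 UMI can still express the gene, and the median depth of these cells was 5673.5 and 5799 UMIs.

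Across the ranges of C1q the lists behaved differently. The interferon-gamma list summed to 7352, 4983, 4016 and 3250.2 CPM from the lowest range to the highest in the WT library and to 1581, 1891, 1886 and 2537 in the Ring1AKO library. It was higher in WT cells in each range, by the widest margin in cells with little C1q. Gbp2 had 1409, 534, 352 and 30.5 CPM in WT cells and 38.1, 42.6, 55.3 and 58.7 in Ring1AKO cells, so that it was not lower in the Ring1AKO library in the highest range. Cxcl9 had 226 CPM in WT and 5.34 in Ring1AKO cells of that range. The monocyte list without Ly6c2 went down with C1q in both libraries, from 15121 to 1778 CPM and from 12486 to 2969, and the libraries crossed. The list of resident genes went up with C1q, from 2105 to 8138 and from 3080.2 to 8689.

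**Figure D4:**
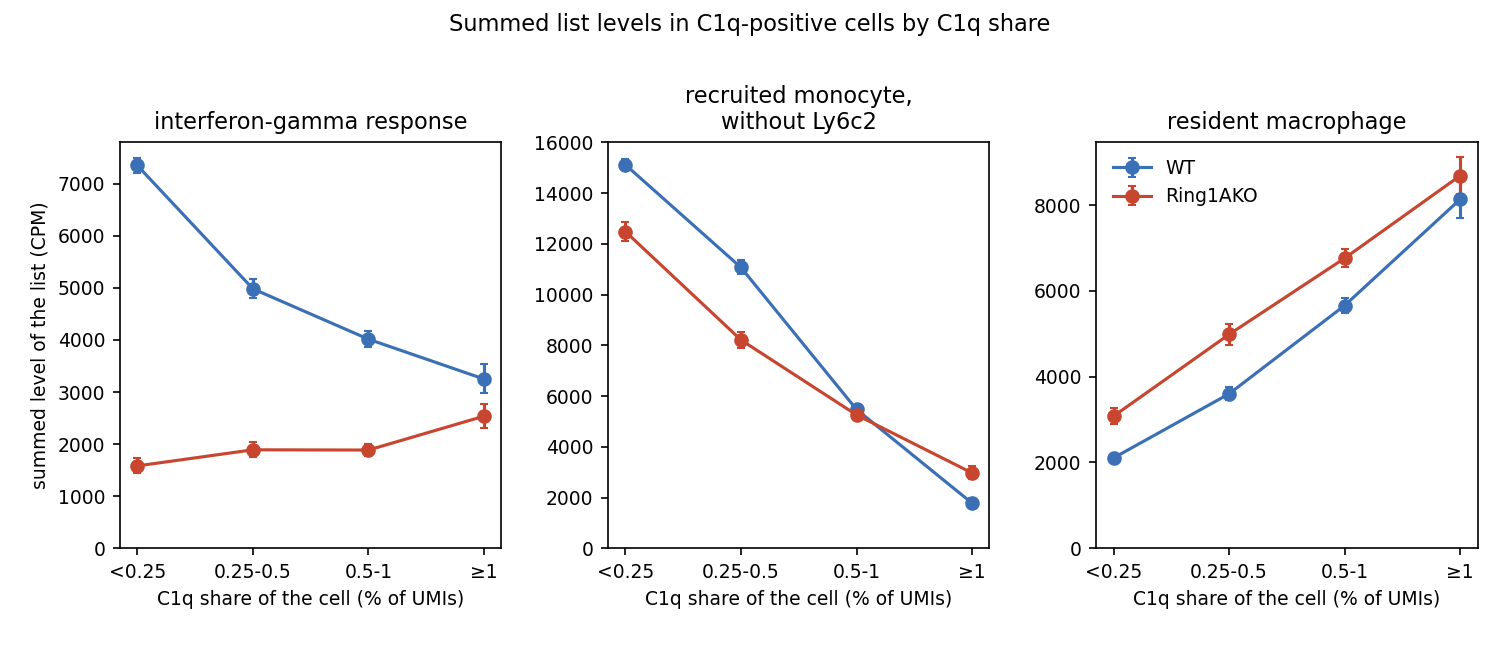
Summed level (CPM) of the interferon-gamma, recruited monocyte (without Ly6c2) and resident macrophage lists in C1q-positive cells of 4 ranges of C1q share, for both libraries, with exact 95% Poisson intervals as bars. The interferon-gamma list is 7352 CPM in WT and 1581 in Ring1AKO cells of the lowest range and 3250.2 and 2537 in the highest.

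A part of the genes of mature macrophages was higher in the Ring1AKO library. Of the 20 genes, 16 were counted, 5 were at least 2-fold higher and none lower, with a median of 0.72. Cd163, a haemoglobin receptor, had 3.32 and 33.4 CPM from 9 and 47 UMIs (3.21, 2.28 to 4.54), Il10 266 and 845 (1.67, 1.53 to 1.80), Vcam1, an adhesion molecule, 86.1 and 214 (1.31), Selenop, a selenium carrier, 471 and 984 (1.06), and Gpr34 8.87 and 18.5 (1.05). Apoe among the identity markers had a ratio of 1.28 (1.24 to 1.32), and the ratios of C1qa, C1qb and C1qc were 0.73, 0.66 and 0.55. In cells without Ly6c2 the list had a median of 0.05, and of 15 genes 3 were at least 2-fold higher and 1 lower. Those higher were Cd163 (2.47, from 6 and 45 UMIs), Trem2, a lipid receptor (44.7 and 103 CPM, 1.18), and Il10 (436 and 949, 1.12). The lower one was Cd4 (49.0 and 22.96, -1.07), which marks long-lived gut macrophages. Over all C1q-positive cells Cd4 was at -0.03, and 1 cell held 29.6% of its UMIs in the WT library. At 2000 UMIs, 2.62% (1.06 to 5.33) of all WT and 4.74% (2.19 to 8.80) of all Ring1AKO C1q-positive cells had Cd4. In cells without Ly6c2, Vcam1 and Selenop had 0.53 and 0.65, and Apoe 7892 and 11156 CPM (0.50). Il10 was found at 2000 UMIs in 16.5% and 35.3% of all C1q-positive cells, beside 1.09% and 1.07% of B cells. Mrc1 was found in 18.7% and 37.9%, beside 0.436% and 0.214%. B cells held 438 and 830.3 CPM of Apoe, and cell-free barcodes held 563 and 861. Some of these genes were higher in Ly6c2 monocytes of the Ring1AKO library too. There, Il10 had 58.7 and 443 CPM (2.91) and Apoe 647 and 2579. Cd81, of the resident list, had a ratio of 2.46 there, beside 0.73 in C1q-positive cells. Of 12 list genes counted in these monocytes, 2 were at least 2-fold higher and 2 lower, with a median of -0.13. Higher Il10 and Apoe were thus not particular to C1q-positive cells.

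Chemokines other than the interferon-induced Cxcl9 and Cxcl10 were partly higher in the Ring1AKO library. Of 15, 6 were at least 2-fold higher and none lower, with a median of 0.66. Cxcl1, which draws neutrophils through CXCR2, had 502 CPM (476 to 529.8) and 2288 (2210 to 2369), a ratio of 2.19 (2.10 to 2.28). Cxcl3, of the same cluster, had 106 (93.8 to 119) and 377 (345 to 410.3), a ratio of 1.83 (1.62 to 2.05), and Cxcl2, of the same cluster too, 6086 and 11192 (0.88). Pf4 had 171 and 636 (1.90), and the monocyte attractants Ccl7, Ccl2 and Ccl12 had 192 and 585 (1.60), 199.8 and 424 (1.09), and 43.96 and 92.3 (1.07). Ccl3 (795 and 1258) and Ccl4 (3021 and 4664) were within 2-fold, Ccl5 had 931 and 818 (-0.19) and Ccl8 270.0 and 271.8 (0.01). Cxcl1 was found at 2000 UMIs in 21.0% (16.2 to 26.4) of WT and 60.0% (52.7 to 67.0) of Ring1AKO cells, beside 1.42% and 1.71% of B cells. It was higher in the Ring1AKO library in each range of C1q, with 363, 498, 835 and 202 CPM in WT cells and 2096, 2655, 2108 and 2526 in Ring1AKO cells. It was also higher in cells without Ly6c2, at 689 and 2395 (1.80). Of 14 chemokines counted in the same cells, 5 were at least 2-fold higher (Cxcl3, Cxcl1, Ccl9, Ccl6 and Ccl7) and Ccl8 was lower, at 720.4 and 276 CPM (-1.38). Pf4 (438 and 747 CPM, 0.77), Ccl2 (324 and 468, 0.53) and Ccl12 (112 and 100.1, -0.17) were within 2-fold there. Ly6c2 monocytes had 8 of 12 chemokines at least 2-fold higher in the Ring1AKO library, where 172 of 7141 genes (2.41%) were, with Cxcl1 at 229 and 804 CPM and Cxcl3 at 285 and 1279.

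**Figure D5:**
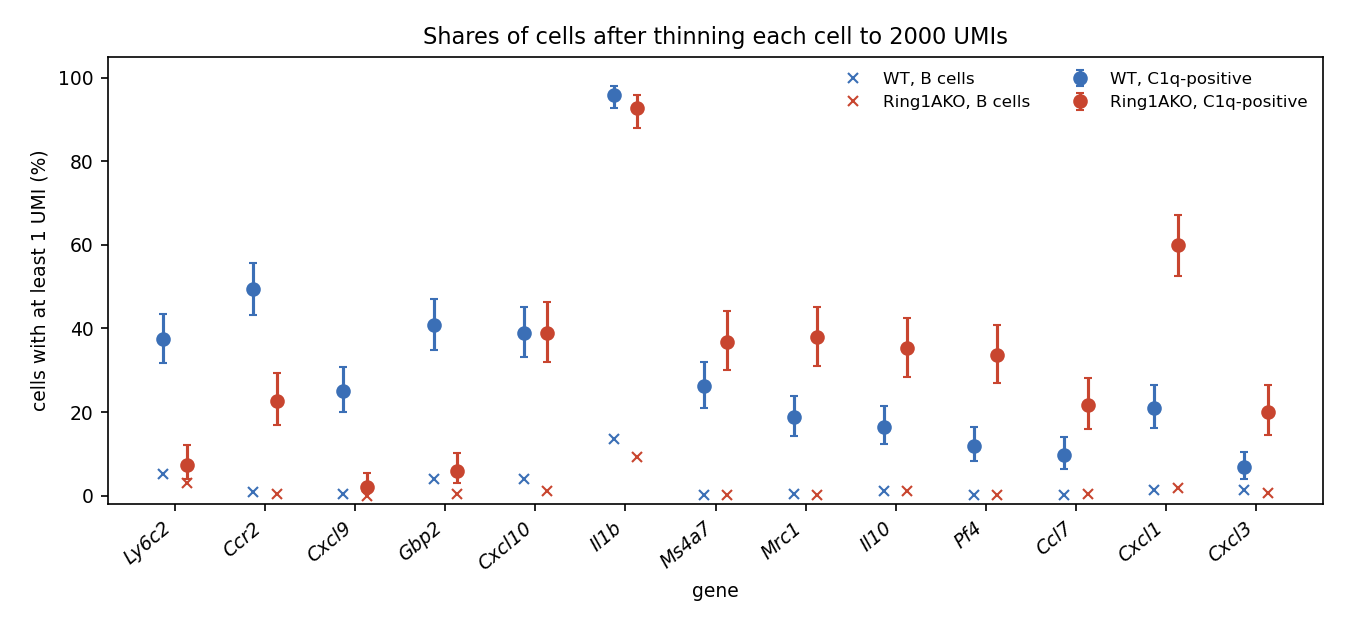
Share of C1q-positive cells with at least 1 UMI of 13 genes after thinning each cell to 2000 UMIs (267 WT and 190 Ring1AKO cells), with exact 95% Clopper-Pearson intervals, and the share of B cells as crosses. Cxcl1 goes from 21.0% to 60.0% between WT and Ring1AKO and Gbp2 from 40.8% to 5.79%, while Cxcl10 is at 38.9% in both.

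Genes for the uptake of dead cells and the handling of their lipids were partly higher. Of 17 counted, 5 were at least 2-fold higher and none lower, with a median of 0.44. They were Mertk, a receptor for dead cells (12.6 and 44.7 CPM, 1.81), its ligand Gas6 (10.7 and 31.2, 1.53), Gpnmb (47.7 and 126, 1.40), Stab1, a scavenger receptor (55.4 and 122, 1.14), and Abca1, a cholesterol exporter (185 and 399.6, 1.11). Axl, a relative of Mertk, had 95.3 and 112 (0.24), and Lgals3 and Npc2 had ratios of -0.35 and -0.37. Among 18 lysosomal genes, 1 was at least 2-fold higher, Cd63 (203 and 462, 1.18), and the proteases Ctsd (335 and 629.5) and Lgmn (997 and 1764) came next, with a median of 0.25. In cells without Ly6c2, 2 of 16 genes of the first list were at least 2-fold higher, Mertk (1.83) and Spp1 (1.13), and the ratios of Gpnmb, Abca1, Gas6 and Stab1 were 0.998, 0.71, 0.50 and 0.22. None of the lysosomal genes was 2-fold apart there, with Cd63 at 0.18 and Lgmn at 0.15.

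The genes of antigen presentation and most inflammatory mediators stood close together. None of 12 genes of the MHC class II list was 2-fold apart, with a median of 0.05. H2-Aa had 6458 and 7046 CPM, H2-Ab1 5979 and 5949.6, and Cd74 14062 and 15495. Ciita, the class II transactivator, which interferon-gamma induces, had 87.2 and 61.0 (-0.50, -0.89 to -0.15). Among 14 inflammatory mediators, Il23a, a subunit of IL-23, was higher (30.7 and 65.3, 1.09, but 0.79 in cells without Ly6c2) and Nos2, the inducible nitric oxide synthase, lower (25.9 and 2.84 CPM from 70 and 4 UMIs, -2.89, -5.10 to -1.77). Il1b had 11628 and 11229 (-0.05), Tnf 396 and 501 (0.34), Ptgs2 3469 and 3603, and Il6 69.1 and 103 (0.58). In cells without Ly6c2, 2 of 13 mediators were at least 2-fold higher and none lower, with a median of 0.36. They were Il6 (45.8 and 107 CPM, 1.21) and Sod2 (352 and 708, 1.01). Tnf was at -0.33 in these cells, and Acod1 at 0.36 beside -0.87 over all cells. At 2000 UMIs, Il1b was found in 95.9% and 92.6% of cells, beside 13.5% and 9.22% of B cells.

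Complement genes other than C1q went in both directions. Of 10 counted, 2 were at least 2-fold lower and none higher, with a median of 0.19. The lower ones were C3, the central component (221 and 102.2 CPM, -1.10), and Cfb, which forms the alternative pathway convertase (163 and 65.3, -1.31). In cells without Ly6c2, 2 of 10 were at least 2-fold lower and none higher. They were C3 (-1.19) and C4b (34 and 19 UMIs, -1.05, -1.98 to -0.24), while Cfb was at -0.76 (-1.25 to -0.28). Over all cells C4b had a ratio of -0.37. The anaphylatoxin receptors C5ar1 and C3ar1 had 238 and 467 (0.97) and 115 and 171 (0.58), and properdin, Cfp, 158 and 269.7 (0.77). Among 15 genes of tissue repair, 3 were higher and 2 lower, with a median of 0.45. The higher ones were low in level: Mmp9 (3.32 and 58.9 CPM, 4.01), Hbegf (29.6 and 86.6, 1.54) and Igf1 (10.3 and 29.1, 1.48). In cells without Ly6c2, Igf1 was at 0.30 (-0.49 to 1.15). Retnla, from single cells, and Mmp8 (22.9 and 9.94, -1.13) were lower. Mmp9 was found at 2000 UMIs in 0.749% and 4.21% of cells, beside 0.218% and 0.214% of B cells and 1.22% and 1.10% of T cells. In the Ring1AKO library, 1 cell held 25.3% of its UMIs. Mmp9 reached the minimum of 50 UMIs over both libraries through the Ring1AKO library alone. Its place among the higher genes is therefore a description. In cells without Ly6c2 it had 1 UMI in the WT library and 79 in the Ring1AKO library.

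Of 11 genes of IL-10 and TGF-beta signalling, Hmox1, which degrades haem, was higher (63.9 and 159, 1.31, but 0.62 in cells without Ly6c2), and Il10ra, the IL-10 receptor, had 218 and 176 (-0.30) and Socs3, a target of IL-10, 589.9 and 598 (0.02). None of 9 Fc and scavenger receptor genes was 2-fold apart (median 0.01), nor any of 13 immediate early genes, which dissociation of tissue at 37 °C also induces (median 0.26). Of 23 polycomb genes, 12 were counted and none was 2-fold apart (median -0.07). Rnf2, the paralog of Ring1, had 20.3 and 35.5 CPM (0.81, 0.22 to 1.38). Of 13 cell cycle genes, Mki67 and Pcna were counted, at 98.6 and 138 and 126 and 196 CPM, and Top2a had 16 and 29 UMIs.

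Markers of other lineages were low but not equal between the libraries. The 8 B cell markers summed to 27.7 (WT) and 97.9 CPM (Ring1AKO), with Cd79b the most abundant and counted, 1.05 in log2 ratio, and none was at 0. The 8 plasma cell markers summed to 5824 and 9909, led by Igkc, against 191190.2 and 170999.7 in cell-free barcodes. From Igha, cell-free RNA would be at most 3.40% and 7.15% of the UMIs of these cells. The 8 T and NK cell markers summed to 42.8 and 63.2, led by Trbc2, with Cd3e at 0 by the rule. The 8 neutrophil markers summed to 631 and 509, led by S100a9, with Ngp at 0 in both, Retnlg higher (5.17 and 27.0) and Mmp8 lower. The 8 dendritic cell markers summed to 147 and 441, led by Ccr7 (89.02 and 308, 1.79), which was also at 608 and 814 in B cells and 174 and 393 in cell-free barcodes. Clec10a, also made by macrophages, was the other one higher (27.3 and 71.7), Siglech was at 0 in the WT library, and Clec9a and Xcr1 were at 0 in the Ring1AKO library. The 6 mast cell markers summed to 8.13 and 36.2, led by Kit, with Tpsb2 at 0 in both, Cpa3 in the WT library and Fcer1a in the Ring1AKO library. The 8 epithelial and stromal markers summed to 57.3 and 48.97, led by Pecam1, with Col3a1 lower (44 and 6 UMIs) and Krt18 at 0 in the WT library. The part of these cells in the differences was not tested. In the 262 WT and 167 Ring1AKO cells with no UMI of 8 lineage markers, 119 of 5583 genes counted were higher and 264 lower. Over all C1q-positive cells these were 148 and 244 of 6193. Gm42031 differed likewise outside these cells, at 6.65 and 158 CPM in them, 4.41 and 88.9 in cell-free barcodes, 20.3 and 85.3 in B cells and 7.49 and 168 in dendritic cells.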

How the data were processed

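Whole-number UMI counts per gene and barcode, unfiltered and not normalized, were deposited by the authors as 1 matrix per library (32228 genes). The labels' processing notes name Cell Ranger 6.0.2, Seurat and build mm39, and the study's methods name an earlier Cell Ranger release and mm10. The counts carry no coordinates, so positions printed here are those of GENCODE or RefSeq on GRCm38. Cells were chosen by the rule given, doublets were not called, and an alternative left out cells with a UMI of 8 lineage markers. UMIs were summed over cells and scaled to CPM. Genes needed 50 UMIs over both libraries, and 1 UMI was added for ratios. A gene high in 1 library could thus be counted through that library, as Cxcl9, Gbp4, Zbp1, Ly6i, Gm42031, Cd163, Mmp9, Nos2 and Retnlg were, among others. Called means 2-fold. Cells were thinned to 2000 UMIs for shares. Comparison gates were at least 2 UMIs of Flt3 and 10 of class II genes (dendritic cells), 3 of Cd79a (B cells) or 2 of Cd3e (T cells).

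Genes named are those of 24 lists, the 10 highest and 10 lowest ratios (at least 100 UMIs and 100 CPM, without immunoglobulin, T-cell-receptor, mitochondrial, rule and sex-linked genes), the 10 highest and lowest against monocytes and the 10 most variable. Lyz2 was used by the rule only. Members and lists were chosen with earlier results of these data known. The lists held 309 entries, and 2 genes were not in the table. Another 3 list genes are not reported here and enter no list value, so 1 of the 10 lowest ratios and 1 of the 10 lowest against monocytes are not named. Per the labels both libraries are a replicate 1. On simulated counts of these cells, 100.0% of 191 counted genes with a 2-fold change had the right direction, 48.17% passed the 2-fold line, 0.17% of unchanged genes did, and 95.7% of intervals held the truth. At 4-fold, 99.47% of 187 passed. The simulated sums were drawn from the Poisson model that the intervals assume, so the spread between cells was left out. These shares therefore cover counting error only. Python 3.11.15, numpy 2.4.6, scipy 1.17.1, pandas 2.3.3 and matplotlib 3.10.9 were used.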

Additional observations from a re-analysis of the deposited data

Results flagged for a closer look

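Mmp8, a collagenase of neutrophils, went in opposite directions in C1q-positive cells and in Ly6c2 monocytes. Its log2 ratio, Ring1AKO over WT, was -1.13 (-2.16 to -0.35) in the former, from 62 and 14 UMIs, and 1.44 in the latter, at 54.9 and 149 CPM. With 1 library per group the difference between the cell types was not tested.

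C1q transcripts were also found outside cells. C1qa, C1qb and C1qc together made up 287 CPM of the cell-free barcodes in the WT library and 268 CPM in the Ring1AKO library, set beside the cells above only as a ratio of C1qa to C1qb. The level in B cells, which should lack these genes, was 2.03 and 1.99 CPM for C1qa.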

How the results depend on the processing

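No paired analysis was possible because a single library stood for each genotype, and no library could be left out. With the rule applied to cells thinned to 2000 UMIs, the share of C1q-positive cells had a log2 ratio of -0.36. Of 1736 genes counted there, 41 were higher and 61 lower, beside 148 and 244 of 6193 in the main setting. Under the same rule 60 genes stood above monocytes in both libraries, and Ramp3 was at -0.19. With B cells left out of the denominator the share was at -0.32. A minimum of 20 UMIs per gene gave 338 higher and 389 lower of 8317 genes, and one of 200 UMIs gave 41 and 91 of 2704. Under the thinned rule Ccr7, Il10, Ccl7 and Ly6i were also within 2-fold, as was Ccr7 without the deepest 10% of cells and Pf4 and Gdf15 in cells without Ly6c2. Saa3 was at 4.13 and Cxcl3 at 2.92 under the thinned rule, Retnla at -1.33 as a mean over cells and Ly6c2 at -7.47 with cell-free RNA subtracted. Among cells without Ly6c2, 122 of 4314 genes were lower and the recruited monocyte list had a median of 0.43. Without the deepest 10% of cells Retnla was at 4.99. Thinned to 1000 UMIs, 84 of 6161 genes had a variance of at least 2 times the mean. Centring on the median gene moved the split to 182 higher and 212 lower, from 148 and 244, and adding 5 UMIs to 148 and 166. The thinned rule, the gene filters and the Ly6c2 subset test fewer or more genes or cells by construction. For the others the cause was not tested.

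Over the 15 alternatives, Cxcl9 stayed between -5.72 and -4.44, Gbp2 between -4.19 and -1.77, Cxcl1 between 1.80 and 2.34, and the medians of the interferon-gamma list between -1.81 and -1.05, of the resident list between 0.05 and 0.85, and of the chemokines between 0.51 and 0.86. The median of the type I interferon list lay between -1.53 and -0.59. The denominator without B cells, the exclusion of shared barcodes, the subset without Ly6c2 and the removal of the top cell of each gene were chosen after seeing the data. Depth limits rare genes: below the minimum of UMIs a gene entered no count of 2-fold genes and no list median. Ratios of single named genes under the alternatives had no such minimum.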
